A study of Mus musculus with 3 samples.

Results

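The peaks described here are guanine-adenine (GA) repeats that lie between genes, far from any protein-coding start, in the list of glucocorticoid receptor (GR) peaks from GR(i)skm-/- skeletal muscle. GR, the product of Nr3c1, is a transcription factor switched on by glucocorticoid hormones. The muscle came from mice of the strain C57/Bl6J, 10 to 12 weeks old. Its chromatin was precipitated with an antibody against the receptor's C terminus and sequenced. The library is titled a GR knockout, so the list comes from muscle in which the antibody's target is labelled as removed. The labels do not say which promoter drives the deletion, which cells keep the receptor or how many animals were pooled, and a peak list cannot check the deletion. The group had 1 library and no replicate. A list for the histone mark H3K27me3, from 1 library of wild-type (WT) muscle of the same strain and age range, was used for overlaps only. Neither an input library nor a GR list of WT muscle was analysed here.

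Members were chosen by sequence and position, not by strength. Of 3087 listed peaks, 2654 had at least 50% of their bases in perfect tandem tracts, which are runs of a unit of 1 to 6 bp repeated at least 3 times over at least 8 bp. The GA dinucleotide, read on either strand, covered most bases in 1453 of these. Of those 1453, 1326 had their summit over 5000 bp from all protein-coding transcript starts, and 782 of these lay outside every annotated gene body (GENCODE vM21, mm10). In 1 of the 782 another unit covered as many bases as GA. At the edge of the cover rule, 2 members had 50% and the closest peak left out had 49.5%. At the edge of the distance rule, the closest member lay 5257 bp from a start and the closest peak left out lay 4807 bp from one. The member closest to a gene body was 96 bp from it. "Between genes" holds for GENCODE only: in the RefSeq annotation of the same build 66 members (8.44%) lay in a gene body, 47 of them in a long non-coding RNA.

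GA repeats are microsatellites, short tandem repeats that change length when DNA polymerase slips. One strand consists only of purines (A and G) and the other only of pyrimidines, and such tracts can fold into triple-stranded DNA. The receptor binds as a dimer to a palindromic response element, which a pure GA run cannot contain. Reads from repeats can match many places in the genome, and peak lists from repeats depend on how those reads were placed. How the authors placed reads with several matches is not given in the sources used here.

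The sequences of 10 members show what these peaks look like. All are given 5′ to 3′ on the strand that carries the purines, read from GRCm38 (mm10), with every perfect GA tract of at least 8 bp in capitals. The lower-case letters between capitals are the interruptions that the results below turn on. The first 4 are the members of highest fold enrichment.
chr8:54306784-54306891, plus strand: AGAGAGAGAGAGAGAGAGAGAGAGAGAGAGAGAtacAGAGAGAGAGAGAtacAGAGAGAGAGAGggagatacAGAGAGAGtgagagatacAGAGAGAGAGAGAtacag
chr2:149524587-149524669, minus strand: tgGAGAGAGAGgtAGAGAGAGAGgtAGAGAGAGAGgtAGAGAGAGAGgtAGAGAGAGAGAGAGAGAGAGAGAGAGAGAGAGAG
chr5:15831691-15831792, minus strand: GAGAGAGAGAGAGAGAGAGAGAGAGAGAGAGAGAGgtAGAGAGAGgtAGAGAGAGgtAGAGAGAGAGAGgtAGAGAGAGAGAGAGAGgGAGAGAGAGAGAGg
chr12:64040215-64040304, plus strand: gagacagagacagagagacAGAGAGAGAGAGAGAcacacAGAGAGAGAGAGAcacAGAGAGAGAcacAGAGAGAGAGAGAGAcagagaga

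In the first, whose nearest protein-coding start is that of Spcs3, the letters tac separated 2 pairs of neighbouring tracts and ended the other 2 gaps. In the next pair, nearest to Cst10 and Cacna2d1, the letters gt separated tracts 4 times each. In the fourth, nearest to Fscb, cac or cacac stood between tracts. None of the 4 was a single pure GA run. Fold enrichments, which are the authors' own, were 70.4, 68.1, 66.7 and 62.9, from 74, 76, 70 and 66 reads at the summit.

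The members of lowest fold enrichment, both at 12.1-fold from 12 reads, were also broken runs.
chr9:57665072-57665228, minus strand: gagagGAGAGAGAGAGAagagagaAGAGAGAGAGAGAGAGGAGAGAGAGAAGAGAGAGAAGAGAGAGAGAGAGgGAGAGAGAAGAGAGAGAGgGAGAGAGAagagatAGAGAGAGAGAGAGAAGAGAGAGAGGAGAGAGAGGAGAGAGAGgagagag
chr13:97226169-97226230, plus strand: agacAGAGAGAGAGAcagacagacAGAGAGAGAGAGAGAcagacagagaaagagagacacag

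The first of these, 11.6 kb from the start of Csk, a kinase that restrains Src, held 12 tracts in 157 bp. It was built of GA runs joined without pyrimidines at nearly every break, while the other, 14.9 kb from the start of Enc1, had cagacagac between its tracts. Breaks were thus present in both the strongest and the weakest members shown.

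The members with the longest perfect GA tracts come next, at 94 bp and 81 bp. Both tracts ran past the edge of the peak, so that only 36 bp and 22 bp of tract lay inside it.
chr10:19044356-19044410, minus strand: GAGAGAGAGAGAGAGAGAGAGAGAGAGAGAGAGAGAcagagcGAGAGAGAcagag
chr1:99630955-99631015, minus strand: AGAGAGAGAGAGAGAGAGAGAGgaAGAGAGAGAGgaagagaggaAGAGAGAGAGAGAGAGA

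In both, the called peak sat at the end of the long tract, where other letters entered. Their fold enrichments were 16.9 and 13.1, near and below the median of the members.

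The last pair had the lowest cover by tandem tracts, 50%, and reached 13.1-fold and 35.7-fold.
chr7:137576002-137576069, minus strand: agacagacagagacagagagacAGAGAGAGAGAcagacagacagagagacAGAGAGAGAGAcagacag
chr13:97543689-97543766, minus strand: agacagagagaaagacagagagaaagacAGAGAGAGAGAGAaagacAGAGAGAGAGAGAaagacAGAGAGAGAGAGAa

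In these, c letters recur within what would otherwise be GA runs, and in the second the letters aagac recur between tracts.

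Interrupted GA repeats were the rule among the members, as they were among the 544 distal GA repeat peaks inside genes. The median member held 4 perfect GA tracts (quartiles 3 and 5), and 774 of 782 (99.0%, exact 95% interval 98.0 to 99.6%) held 2 or more. Only 8 held a single tract. Peaks inside genes also had a median of 4 tracts, and 98.9% of them held 2 or more. Of all listed peaks, which include those on other units, 52.4% did. The median longest tract inside a peak was 21.5 bp (quartiles 15 and 28), and in 224 members the longest tract overlapping the peak was under 20 bp even when followed past the peak's edge. Purines made up a median of 93.8% of the bases of the purine-rich strand, and 88 members (11.3%) held no pyrimidine on it. A GA tract ran past an edge of the peak in 698 members (89.3%). The intervals given here cover counting error only, in peaks of 1 library.

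The interruptions mostly held cytosine, in members and in peaks inside genes, where 66.5% of gaps held C but no T. Of the 2644 gaps between neighbouring tracts, 1785 (67.5%) held C but no T on the purine-rich strand, 589 (22.3%) held purines only or no letter, 164 (6.2%) held T but no C, and 106 (4.01%) held both. A gap of 1 c was present in 368 members (47.1%), and 237 of the 544 distal GA repeat peaks inside genes (43.6%) had one too. The gap cac occurred in 82 members, cagac in 58 and cagagagac in 50. A lone g occurred in 90 and a lone a in 64. The gaps c, cac and cagac are what a GA run shows when C stands at G positions.

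Fold enrichment is given by letters as a description without a test, for letters picked after their values were seen. Members with a single c gap had a median of 15.96-fold, the median of all members. The 21 members with cacac had a median of 28.2-fold (quartiles 16.6 and 32.9), and 15 of them (71.4%) reached 20-fold, against 30.3% of all members. The 16 with gt had a median of 21.1-fold, the 23 with aac 19.1-fold and the 82 with cac 18.2-fold. At the other end, the 32 with a lone t had a median of 14.6-fold. The quartiles of these groups overlapped, and a member can be in several.

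Across the genome, peaks fell on interrupted GA repeats far more often than on pure ones. To see this, perfect GA tracts of at least 8 bp on 1 strand were joined into a repeat when 50 bp or less apart, and repeats with at least 1 tract of 20 bp were kept. Of the 62634 such repeats that were distal and intergenic, 697 (1.11%, exact 95% interval 1.03 to 1.20%) overlapped a listed GR peak, against 1.13% of all distal GA repeats. Among the 38237 made of 1 uninterrupted tract, 21 (0.0549%, 0.034 to 0.0839%) did. The share was 0.578% with 2 tracts, 2.37% with 3, 6.58% with 4 to 5 and 15% (13.3 to 16.8%) with 6 or more. Each interval lay wholly above the previous one. Of the 782 members, 619 (79.2%) overlapped such a repeat and none overlapped more than 1. The other 163 overlapped none. Since 697 exceeds 619, some repeats with a peak overlap only listed peaks that are not members. The shares of repeats given here count any listed peak. The split by number of tracts, and the splits by bases, letters and uniqueness that follow, were chosen after the data were examined.

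**Figure D1:**
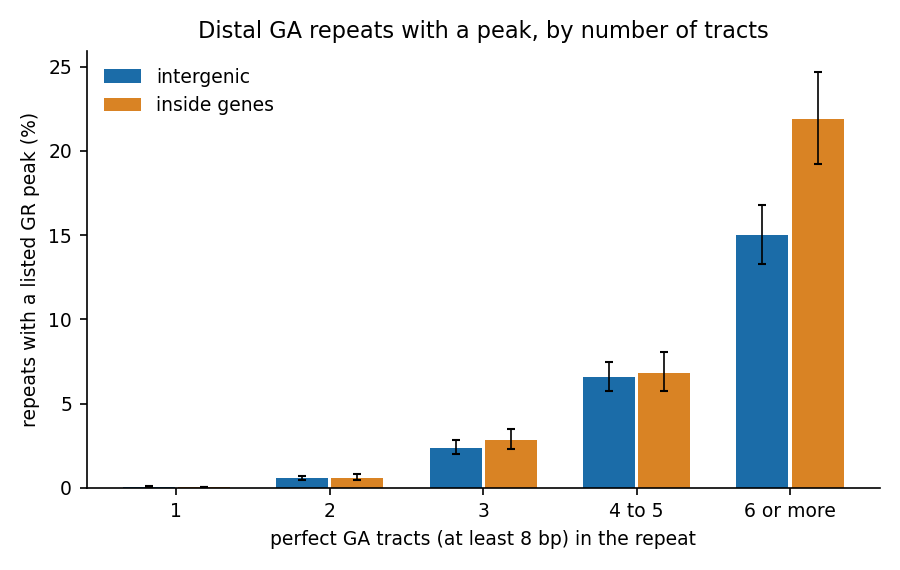
Share of distal GA repeats that overlap a listed GR peak (y axis, percent) by the number of perfect GA tracts in the repeat (x axis), for intergenic repeats and repeats inside genes; bars are shares and error bars exact 95% intervals. In intergenic repeats the share goes from 0.0549% with 1 tract to 15% with 6 or more.

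Repeats with more tracts also held more GA bases and spanned more sequence. The median span was 114 bp in intergenic repeats with a peak and 53 bp in those without. Shares within classes of GA bases are given next, without matching the span. With 40 to 59 GA bases, 9 of 18832 single-tract repeats had a peak (0.0478%), against 58 of 7269 with 2 or 3 tracts (0.798%) and 15 of 354 with 4 or more (4.24%). With at least 80 and under 120 GA bases the counts were 0 of 472, 66 of 2770 (2.38%) and 224 of 2327 (9.63%). Where the longest tract was 60 bp or more, 0 of 5809 uninterrupted repeats had a peak and 64 of 3365 interrupted ones did (1.9%). Over all tract numbers, repeats whose longest tract was 20 to 29 bp had a peak in 1.38% of cases and those of 60 bp or more in 0.698%.

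Intergenic repeats with and without a peak also differed in composition. The 697 with a peak had a median of 4 tracts, 91 GA bases and 96.0% purine, and 531 (76.2%) had a C in a gap. The 61937 without one had a median of 1 tract, 51 GA bases and 100% purine, and 9703 (15.7%) had such a C. A single tract has no gap, and single tracts were 38216 (61.7%) of repeats without a peak and 21 (3.01%) of those with one. The contrast in C thus partly restates the number of tracts. With 2 or more tracts, 5.19% of repeats with a C in a gap had a peak, against 0.604% with purines only and 2.77% with a T and no C. Among repeats with exactly 2 tracts, 11 of 8720 with only purines between them had a peak (0.126%), against 51 of 3922 with a C in the gap (1.3%) and 20 of 1541 with a T and no C (1.3%). Among those with exactly 3 tracts the shares were 0.733% with purines only, 3.15% with a C and 4.08% with a T and no C. Among those with 4 or more tracts they were 5.57%, 10.8% and 5.31%. A C went with a higher share than a T only in this last class. By letters, 63 of the 173 intergenic repeats with a cac gap had a peak (36.4%, exact 95% interval 29.2 to 44.1%), 14 of 39 with cacac, 15 of 52 with gt and 332 of 3402 with a single c (9.76%). These letters were picked because members held them, so their shares are no independent evidence.

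Uniqueness in the genome moved with the number of tracts. A stretch of 31 bases (31-mer) was counted at all genome positions on both strands. A 31-mer found at only 1 position was present in 20.3% of intergenic repeats with 2 tracts, 44.9% with 3, 62.0% with 4 to 5 and 65.2% with 6 or more. A single perfect tract cannot hold one, because it is either shorter than 31 bp or has only pure GA runs as 31-mers. Flanking bases outside the repeat were not counted. A longer repeat has room for more 31-mers, and span was not matched here. Repeats with such a 31-mer had a peak in 440 of 8379 cases (5.25%), and those without one in 257 of 54255 (0.474%). Among repeats with one, the share with a peak was 1.46% with 2 tracts, 2.97% with 3, 6.67% with 4 to 5 and 17.4% with 6 or more. Among repeats without one, it was 0.354%, 1.89%, 6.43% and 10.3% in the same classes. The share was thus higher with more tracts in both kinds of repeat, and higher with such a 31-mer in every class, with overlapping intervals at 3 and at 4 to 5 tracts. The read length and the rule for reads with several matches are not known, and their part in this pattern was not tested.

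Of the members themselves, 486 (62.1%) held at least 1 such single-position 31-mer within the peak and 296 (37.9%) held none. One was present in 66.6% of all listed peaks and 65.1% of distal GA repeat peaks inside genes. The 31-mer at the summit lay at a median of 8 genome positions (quartiles 2 and 40), against 7 for all listed peaks. It was found at 1 position in 140 members (17.9%), against 20.3% of all listed peaks. It was found at over 1000 positions in 50 members (6.39%), against 5.15%. Soft-masking, the lower-case marking of repeats in the reference, covered all bases of 775 members (99.1%), against 95.6% of all listed peaks. These differences were not tested.

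Cover by perfect GA tracts fell within 100 bp of the summit. A GA tract covered the summit base in 580 members (74.2%), of which the rule accounts for part, since it required tandem tracts over the peak. At 50 bp from the summit, 43.7% of members were in a GA tract on the 5′ side of the purine-rich strand and 39.6% on the 3′ side. At 100 bp the shares were 12.0% and 10.6%, and at 200 bp 3.45% and 3.2%. Tandem tracts of any unit reached further, at 62.0% and 51.0% of members at 50 bp and 25.1% and 16.5% at 100 bp. Purines stayed in excess further out, at 60.9% and 65.2% of members at 100 bp. In the 100 bp beyond each peak edge the median member had 67.5% purine and 44.3% G and C.

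**Figure D2:**
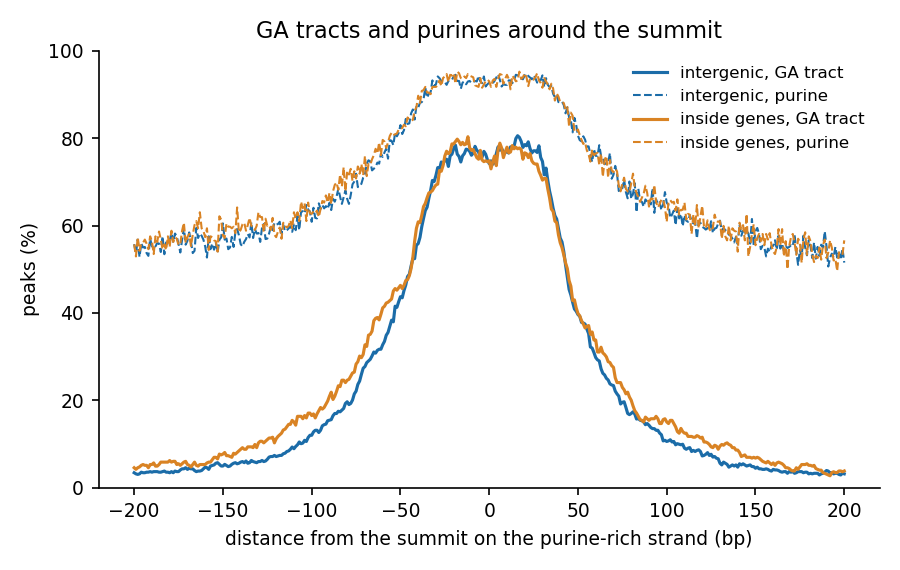
Percent of peaks with a GA tract (solid) or a purine (dashed) at each base, by distance from the summit in bp on the purine-rich strand, for the 782 intergenic members and the 544 distal GA repeat peaks inside genes. GA tracts cover 74.2% of members at the summit and 12.0% at 100 bp on the 5′ side.

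The purine-rich strand was the plus strand in 387 members (49.5%) and the minus strand in 395. For peaks inside genes it was the plus strand in 50.2% (difference -0.695 percentage points, 95% interval -6.15 to 4.76, two-sided Fisher's exact adjusted p = 0.988 over 6 tests). A tandem tract of another unit lay within 100 bp of 491 members (62.8%), against 66.4% of peaks inside genes (difference -3.57 points, -8.73 to 1.68, Fisher's exact adjusted p = 0.6). Of all listed peaks, which include the CA repeat peaks, 73.2% had a tract of a unit other than GA within 100 bp. CA tracts were part of this neighbourhood for 269 members (34.4%), against 36.6% of peaks inside genes and 43.3% of all listed peaks. Neither of the tested differences, in strand and in tracts of another unit, passed. Each interval leaves room for differences of several points.

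The strength of the members was modest and had a long upper tail. Fold enrichment ranged from 12.1 to 70.4 with a median of 15.96 (exact 95% interval of the median 15.96 to 16.9), and reads at the summit from 12 to 76 with a median of 16. In 349 members (44.6%, exact 95% interval 41.1 to 48.2%) the peak rested on 12 to 15 reads, against 39.2% of all listed peaks. The share was 40.8% for peaks inside genes and 40.3% for distal peaks on CA repeats, and these differences were not tested. Many members thus sit just above the list's own threshold of a -log10 q of 20. The background under the summit had a median of 0.0651 reads. Because 1 is added to both terms of the fold and the background is near 0, the fold mostly counts summit reads. At 20-fold or more stood 237 members (30.3%), the same share as of all listed peaks, 30.3%. The share inside genes was 30.3% as well (165 of 544, difference -0.024 points, 95% interval -5.09 to 4.95, two-sided Fisher's exact adjusted p = 1.0). Distal peaks on cytosine-adenine (CA) repeats reached 20-fold in 136 of 514 cases (26.5%, difference 3.85 points, -1.21 to 8.76, Fisher's exact adjusted p = 0.6). At 30-fold, 85 members (10.9%) and 28 CA repeat peaks (5.45%) remained, a difference of 5.42 points (Fisher's exact adjusted p = 0.00358), so the contrast with CA repeats rests on the choice of threshold. These tests compare peaks of 1 library with each other and have no replicate behind them.

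**Figure D3:**
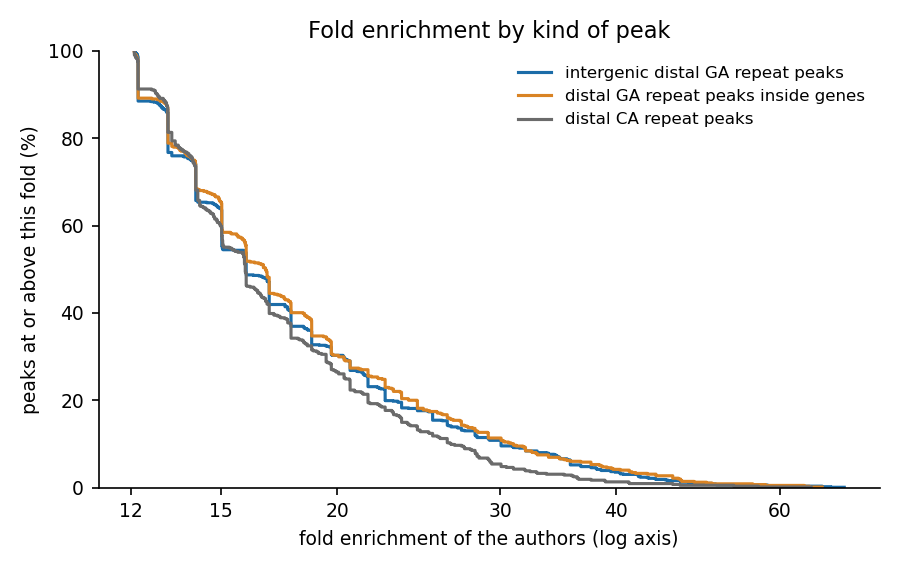
Percent of peaks at or above each fold enrichment of the authors (x axis, log scale) for intergenic distal GA repeat peaks, distal GA repeat peaks inside genes and distal CA repeat peaks. At 20-fold the curves stand at 30.3%, 30.3% and 26.5%, and at 30-fold at 10.9%, 11.4% and 5.45%.

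Stronger members were wider and held more tracts, but not longer ones. Tracts were counted inside the called peak, so a wider peak has room for more, and the number of tracts was not separated from width. The 349 members with 12 to 15 reads had a median width of 61 bp and 3 tracts, and the 36 with 40 reads or more had 93 bp and 5 tracts. The median longest tract was 21 bp in the first class and 24 bp in the second. Single-position 31-mers were present in 207 (59.3%) and 31 (86.1%) of these members. Across the 782 members, which share 1 library, fold enrichment had a Spearman's rho of 0.347 with width (Pearson's r 0.221), 0.207 with the number of tracts (r 0.185) and 0.028 with the longest tract in the peak (r 0.0307). Distance to the nearest start gave a rho of -0.06 (r -0.0622).

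Most members lay deep between genes. The median distance to a protein-coding start was 158.1 kb (quartiles 38.8 and 406.1, range 5.257 to 2298 kb), and 480 members (61.4%) lay over 100 kb and 46 (5.88%) over 1 Mb away. For the peaks inside genes the median was 50.3 kb, a contrast that the rule itself largely sets. The nearest gene body of any type was a processed pseudogene for 233 members, a protein-coding gene for 195 and a long intergenic RNA for 142, at a median gap of 25.03 kb over all members.

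**Figure D4:**
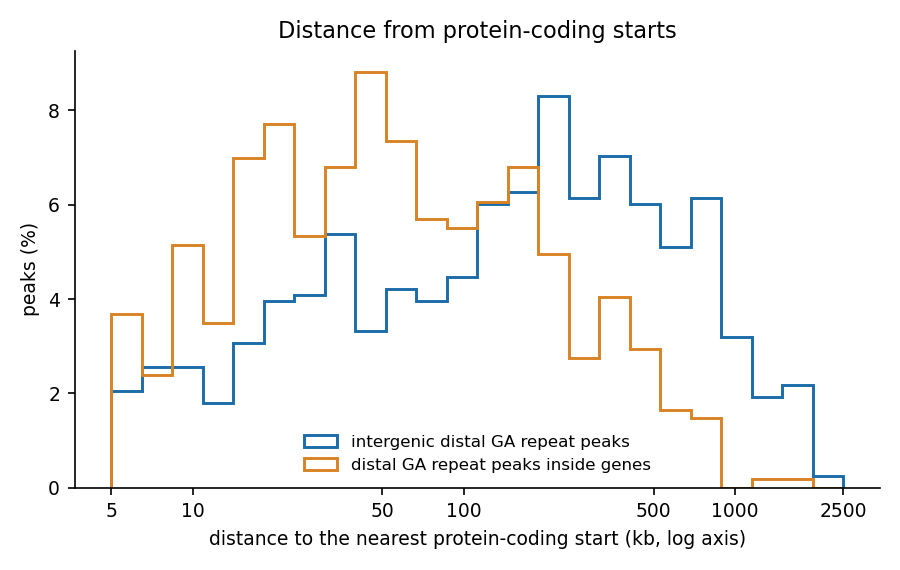
Percent of peaks by distance to the nearest protein-coding start (x axis, kb, log scale), for the 782 intergenic members and the 544 distal GA repeat peaks inside genes. The medians are 158.1 kb and 50.3 kb.

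The 10 strongest members lay 89.2 kb to 2298 kb from a start. After the 4 already shown came the member nearest to Tcf4, an E-protein of the basic helix-loop-helix class, at 58.2-fold and 61 reads. Members nearest to Mki67, the proliferation antigen Ki-67, and Glrx3, a glutaredoxin, reached 51.3-fold from 57 reads and 51.2-fold from 54. The member nearest to Myc, the growth-promoting transcription factor, reached 50.7-fold from 53 reads at a distance of 423.8 kb. Those nearest to Ralyl, an RNA-binding protein, and Tenm3, a teneurin adhesion protein, both reached 47.9-fold from 50 reads, and lay 1414 and 2298 kb away. All 10 held 4 to 11 tracts, and 9 of the 10 had at least 1 single-position 31-mer. The exception was the Ralyl member, with none among its 42.

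The members nearest to a start varied in strength. The 5 nearest to a start belonged to Dcun1d4, a neddylation cofactor, Rbmxl2, an RNA-binding protein of germ cells, Zfp809, a zinc finger silencer of retroviral elements, Tdrd7, a tudor domain protein, and Card19, a protein with a caspase recruitment domain. Their distances were 5.257, 5.356, 5.44, 5.72 and 5.789 kb. The Tdrd7 member, at chr4:45959550-45959731, reached 46.9-fold from 49 reads and held 12 tracts. The other 4 reached 13.8 to 17.6-fold from 14 to 18 reads. At the far end, after Tenm3, the members nearest to Aga, a lysosomal amidase, Diaph2, a formin, Pik3c3, the class III phosphoinositide kinase, and Slc39a10, a zinc transporter, lay 2233, 1920, 1823 and 1733 kb away and reached 20.7, 14.1, 15.02 and 12.2-fold.

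The protein-coding gene nearest to each member was compared with lists of glucocorticoid response and muscle genes. In all, 657 of 21864 protein-coding genes were (3.0%), 562 of them to a single member. Pcdh7, a protocadherin, was nearest to 6 members, 429.7 to 1574 kb away, and was the only gene with 5 or more. None of the 39 glucocorticoid-induced genes was the nearest to any. Of 40 contractile and calcium handling genes 2 were (5.0%): Trdn, the triadin of the calcium release complex, 24.3 kb from a member of 13.1-fold, and Casq2, a calcium store protein, 32.5 kb from one of 27.4-fold. Of 31 muscle energy genes 2 were (6.45%): Cd36, a fatty acid transporter, 14.3 kb from a member of 27.2-fold, and Ppargc1a, a coactivator of mitochondrial genes, with members at 141.4 and 154.9 kb of 20.7 and 14.1-fold. Of 18 myogenic regulators 3 were (16.7%). Pax7, the satellite cell factor, lay 45.7 kb from a member of 17.7-fold, Mef2a 119.5 kb from one of 34.8-fold and Mef2c 184.4 kb from one of 15.02-fold.

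Pax7 was also the only hit among 15 satellite cell markers. Of the 20 genes listed as fibroblast markers 2 were nearest to members, Dcn, a matrix proteoglycan, and Tcf4, which had 3. The marker of muscle fibroblasts often called TCF4 is the product of another gene, Tcf7l2, so the Tcf4 entry is no fibroblast marker and the list's count rests on Dcn. Of 20 endothelial and 22 leukocyte markers none was. These counts are small and were not tested against the 3.0% of all genes, and the width of the intergenic space beside each gene was not matched. For Fkbp5, Per1, Tsc22d3, Myod1, Acta1, Ckm, Trim63 and Fbxo32, genes of hormone response or muscle, the closest member lay 1261 kb or more from the gene's start. For Nr3c1 it lay 422.7 kb away, at 14.1-fold.

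The receptor's full response element, searched as an exact string, was not found near these summits. So long an exact string is rare in any sequence, so its count of 0 cannot set these peaks apart. The full palindrome, AGAACA and its reverse complement with 3 bases between them, searched on both strands, occurred in 0 of 782 windows of 200 bp around the summit and in 0 of the 3087 windows of all listed peaks. AGAACA alone occurred in 81 members (10.4%, exact 95% interval 8.31 to 12.7%), against 9.56% of peaks inside genes and 9.2% of all listed peaks. The looser core ACANNNTGT occurred in 19 members (2.43%), against 2.69% of all listed peaks. CAGCTG, an E-box bound by myogenic factors, occurred in 12 (1.53%), against 1.62% of all. TGACTCA, the AP-1 site, occurred in 10 (1.28%), against 1.39% of all listed peaks, and CCAAT in 61 (7.8%), against 8.78%. The MEF2 site, bound by a muscle factor and also searched as a long exact string, occurred in 0 members and in 0 of the 3087 listed peaks. A run of 5 CA units occurred in 203 members (26.0%), against 38.9% of all listed peaks, which include the CA repeat peaks. A repeat of this size takes up much of a window of 200 bp, and a string that is absent says nothing about the factor.

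By chromosome, the share of intergenic GA repeats with a peak ran from 0.758% to 1.69% on the 19 autosomes, with a median of 1.21%. Chromosome 3 was highest, with 65 of 3846 repeats and 70 members, and chromosomes 19 and 8 were lowest among autosomes, at 0.758% and 0.764%. Chromosome X had 22 of 3914 (0.562%, exact 95% interval 0.353 to 0.85%) with 30 members, and chromosome Y 18 of 3971 (0.453%, 0.269 to 0.715%) with 21 members. The intervals of X and Y overlapped that of chromosome 8 (0.48 to 1.16%) and lay below that of chromosome 3 (1.31 to 2.15%).

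**Figure D5:**
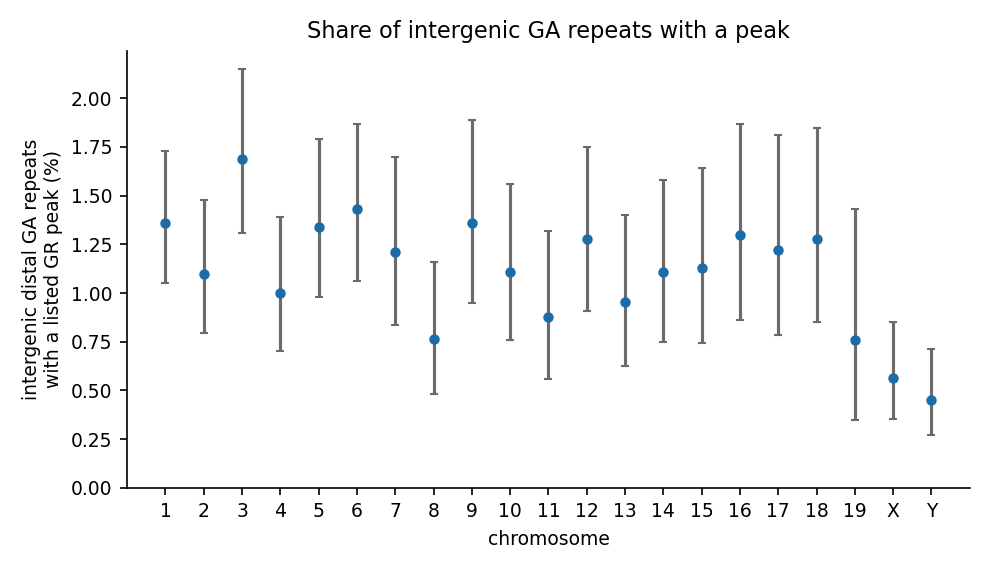
Share of distal intergenic GA repeats that overlap a listed GR peak (y axis, percent) on each chromosome (x axis); points are shares and bars exact 95% intervals. Chromosome 3 stands highest at 1.69% and X and Y lowest at 0.562% and 0.453%.

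The share of GA repeats with a peak did not differ detectably between and inside genes, at 1.11% of 62634 and 1.16% of 41962 (difference -0.043 points, 95% interval -0.176 to 0.0868, two-sided Fisher's exact adjusted p = 0.872). With 6 or more tracts the shares were 15% between genes and 21.9% (19.2 to 24.7%) inside them, a difference that was not tested.

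Listed peaks were rarely close to each other, members included. The median gap to the next listed peak was 289.0 kb for members. It was 270.1 kb for peaks inside genes and 261.3 kb for all listed peaks. Within 10000 bp of another peak lay 31 members (3.96%), against 4.6% of the peaks inside genes (difference -0.631 points, -3.03 to 1.54, Fisher's exact adjusted p = 0.872). Of all listed peaks, 5.93% lay that close to another, a share that was not tested against that of the members. There were 10 neighbouring pairs of members within that distance. The tightest group lay 117.7 to 118.2 kb from the start of Tle3, a Groucho-type corepressor, where 3 members at chr9:61254169-61254309, chr9:61254373-61254546 and chr9:61254605-61254889 were separated by 63 and 58 bp and reached 14.1, 15.96 and 43.2-fold. Near Carnmt1, a carnosine methyltransferase, members of 44.0 and 26.5-fold lay 87 bp apart. Neighbours this close may be parts of 1 repeat region, which was not examined, and cannot be taken as independent.

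Overlap with the 399 H3K27me3 regions of WT muscle was rare in the whole GR list, at 19 of 3087 peaks (0.615%). Of the members 0 of 782 overlapped one, and a limit of 3 counts allows a share of up to 0.384%. The counts were 1 of 544 for peaks inside genes and 0 of 514 for CA repeat peaks. Within 10000 bp of a region lay 5 members (0.639%), against 1.65% of all listed peaks. These shares were not tested against each other. The closest was chr12:23477653-23477710, at 19.7-fold, 17 bp from a region at chr12:23477728-23478083 of 19.2-fold, and 302.6 kb from the start of Gm10330. Another lay 2200 bp from a region of 9.06-fold and 24.9 kb from the start of Ryr3, a calcium release channel. The lists come from mice of different genotype and from different antibodies, and folds of the lists cannot be compared.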

How the data were processed

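GR peaks of GR(i)skm-/- muscle and H3K27me3 regions of WT muscle, 1 library each, were analysed as deposited. Per the submitters' processing notes, the authors used bcl2fastq 2.17.1.14, Bowtie 1.0.0, mm10 and MACS2. The control for calling and the handling of reads with several matches are not given in the sources used here. The score column, as deposited, equals the -log10 q of the GR list multiplied by 10 and truncated. Fold enrichment, a ratio, and the -log10 values of p and q were taken from the authors' columns. Per the deposited values, no -log10 q in the GR list is under 20.01 and it holds 23.9% of the numbered peaks. Library depths are unknown.

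Members and gene lists were chosen with earlier results of these data known. Tandem tracts were read within each peak from GRCm38. Protein-coding starts were transcripts of that type in GENCODE vM21. Reads at the summit were solved from fold and -log10 p under a Poisson model, each within 5.5e-05. Shares carry exact Clopper-Pearson 95% intervals, a share of 0 carries a limit of 3 counts, and differences of shares carry Newcombe intervals. Two-sided Fisher's exact tests, 6 in all, were adjusted by Benjamini-Hochberg. Repeats were placed by their midpoint, and distal means over 5000 bp from a start.

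Genes named are the nearest protein-coding genes of the 10 strongest members, of the 5 nearest to and 5 farthest from a start, and of list genes, up to 8 per list, plus 9 fixed genes. Letters of interruptions, genes with most members, close pairs and members near H3K27me3 regions were picked after their values were seen. The tract caller and the read recovery were tested on simulated data. Alternatives covered tract cover, distances, gene bodies, peak strength, thresholds, windows and repeat definitions. Tables and tests were made with scipy 1.17.1, pandas 2.3.3 and numpy 2.4.6 in Python 3.11.15, and figures with matplotlib 3.10.9. The sequence of 1 further member is not reported here.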

Additional observations from a re-analysis of the deposited data

How the results depend on the processing

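Of 40 alternative settings, 23 left their result within its bounds or on the same side of its test. None of the 6 tested differences passed in the main setting. No paired analysis was possible because each group has 1 library. Requiring 80% tandem cover left 409 members with a median width of 62 bp, and a -log10 q of at least 30 left 414 with a median of 21.3-fold and 74 bp. Other definitions gave 732 to 887 members. The share at 30-fold, in place of 20-fold, exceeded that of CA repeat peaks by 5.42 points and passed the test. Motif counts followed the window: with 100 bp and 400 bp AGAACA was in 25 and 215 members, CCAAT in 10 and 244, the looser core in 0 and 74, the E-box in 0 and 53 and the AP-1 site in 0 and 30. The CA run was in 68 with 100 bp. Reading tracts past the peak edges, added after the data were seen, gave 809 members. Each listed peak rests on 12 to 92 summit reads of 1 library, and no replicate gives the spread of a share.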
